A study of Mus musculus with 14 samples.

Results

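The mouse apolipoprotein L genes form a cluster on chromosome 15, and 10 of them are described here: *Apol11b*, *Apol10a*, *Apol10b*, *Apol7a*, *Apol7c*, *Apol7e*, *Apol6*, *Apol8*, *Apol9a* and *Apol9b*, out of 49315 genes in the spleen count table and 18603 in the ovary table. They were chosen by family name, and the family was picked because *Apol11b* and *Apol10a* rose strongly in L2-fKO spleen, so the genotype difference in the spleen is given below as a description and carries no test. All 10 were in the spleen table and 8 of them passed the count filter (10 or more counts in 4 or more of 8 libraries). In the ovary 6 were in the table and 5 were tested, while *Apol7a*, *Apol7c*, *Apol8* and *Apol10a* were not analysed there.

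Apolipoprotein L proteins carry amphipathic helices that insert into membranes. The best known, human APOL1, is secreted onto high-density lipoprotein and lyses trypanosomes, whereas most of the other family members stay inside the cell. Genes of this family are known to be raised by interferons and other inflammatory signals in leukocytes and endothelium, and in the mouse the family has expanded by local duplication.

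RNA was sequenced from 14 libraries of mouse pups, 1 animal per library: 4 WT and 4 L2-fKO spleens, and 3 WT and 3 L2-fKO ovaries. L2-fKO animals lacked *Zfp36l2*, which encodes an RNA-binding protein that promotes decay of mRNAs with AU-rich elements. Its floxed exon had been removed by a Cre recombinase driven by the human CMV minimal promoter, which is active in the early embryo. The study described Cre expression in every tissue and the germ cells, and reported complete recombination. The WT littermates had intact *Zfp36l2* alleles and carried the same CMV-Cre transgene. The study took tissues in the first days after birth and reported that L2-fKO pups were short of blood cells of several lineages. The labels give no age for a library, and the study states that WT and L2-fKO spleens were matched by age without saying which animals were matched. The spleens came from 3 females and 5 males (WT spleens 1 and 3 and L2-fKO spleen 3 were female), the ovaries were all female, and L2-fKO spleen 3 and L2-fKO ovary 1 were from the same pup.

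Spleen libraries held 39138010 to 45167464 counts, and whole reads recovered from the ovary values came to 31052510 to 44270070. *Zfp36l2* fell from a normalized count of 5739 ± 1419 (SD, n = 4) to 339 ± 52.9 in the spleen and from 4840 ± 83.9 (SD, n = 3) to 926 ± 145 in the ovary, with no overlap in either tissue. The L2-fKO means were 5.91% of WT in the spleen and 19.1% in the ovary. Counts per gene do not show which part of the gene the remaining reads came from. The 6 genes taken as a check of spleen tissue were all detected, with summed normalized counts of 15377 to 45116 in WT and 15245 to 35976 in L2-fKO, and the 7 oocyte genes were all detected in every group of ovaries, with sums of 94973 to 114784. In the spleen, 9 of 9 megakaryocyte markers, 10 of 10 neutrophil markers and 3 of 4 monocyte markers were lower in L2-fKO and 6 of 8 mast cell markers and 3 of 7 stromal markers were higher, while 1 mast cell marker, *Kit*, was lower (edgeR's quasi-likelihood test, adjusted p below 0.05 and a change of over 1 on the log2 scale). By the same test and limits, 4 of 5 tested pancreatic acinar markers were lower in L2-fKO. That list summed to 24550, 7579, 1641 and 21402 normalized counts in WT spleens 1 to 4 and 1255 to 2181 in L2-fKO. The part of pancreatic tissue in these spleens was not tested. In the lists of natural killer cells, conventional dendritic cells and oocytes 1 marker each was lower (*Klrb1c*, *Cd209a* and *Ddx4*). In whole tissue, more or fewer cells of one kind and more or less RNA per cell cannot be told apart.

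*Apol6* lay apart from the rest of the members (chr15:77044729-77057106 on GRCm38), and the other 9 fell within 369 kb, from 77388219 to 77757003, on both strands. Within that block *Apol10a* (chr15:77477047-77491069, plus strand) and *Apol11b* (chr15:77633946-77643286, minus strand) stood on either side of *Apol7c* and *Apol10b*. The promoters of *Apol11b* and *Apol10a* are shown because both genes rose in L2-fKO spleen, that of *Apol8* because it rose less, and that of *Apol9b* because it moved with a different set of libraries. Each is from RefSeq on GRCm38.p6, runs 5′ to 3′ on the gene's own strand from 250 bases before the annotated start to 50 after it, and has in capitals the matches, on either strand, to GAAANNGAAA (the core letters of an interferon-stimulated response element) and to TTCNNNGAA (a STAT binding motif).
Apol11b (chr15:77643237-77643536, minus strand): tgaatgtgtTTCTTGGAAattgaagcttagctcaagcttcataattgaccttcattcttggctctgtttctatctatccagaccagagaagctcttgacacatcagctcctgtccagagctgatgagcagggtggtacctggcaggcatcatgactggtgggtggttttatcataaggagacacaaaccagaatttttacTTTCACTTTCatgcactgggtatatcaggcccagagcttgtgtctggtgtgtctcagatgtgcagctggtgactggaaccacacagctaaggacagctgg
Apol10a (chr15:77476797-77477096, plus strand): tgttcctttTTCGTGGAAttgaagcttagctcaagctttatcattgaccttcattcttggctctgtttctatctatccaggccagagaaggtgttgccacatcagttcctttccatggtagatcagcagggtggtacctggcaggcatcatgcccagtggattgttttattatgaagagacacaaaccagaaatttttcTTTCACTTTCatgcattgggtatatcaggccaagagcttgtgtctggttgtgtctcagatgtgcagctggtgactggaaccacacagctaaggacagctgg
Apol8 (chr15:77756961-77757260, minus strand): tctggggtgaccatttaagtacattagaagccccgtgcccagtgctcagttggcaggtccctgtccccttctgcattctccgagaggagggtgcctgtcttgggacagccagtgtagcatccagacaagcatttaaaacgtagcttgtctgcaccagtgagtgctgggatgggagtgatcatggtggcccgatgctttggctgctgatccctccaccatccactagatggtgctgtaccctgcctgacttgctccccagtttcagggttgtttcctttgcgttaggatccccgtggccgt
Apol9b (chr15:77728822-77729121, plus strand): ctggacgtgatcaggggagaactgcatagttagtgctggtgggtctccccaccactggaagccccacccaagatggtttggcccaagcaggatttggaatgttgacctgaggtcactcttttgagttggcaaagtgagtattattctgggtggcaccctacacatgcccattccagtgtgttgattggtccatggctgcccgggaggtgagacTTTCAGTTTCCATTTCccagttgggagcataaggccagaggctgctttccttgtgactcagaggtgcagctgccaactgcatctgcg

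The *Apol11b* and *Apol10a* promoters aligned over 293 bases with 265 identical, 26 mismatched and 2 in gaps. Another family gene that is not among the 10, *Apol11a* (chr15:77508271-77518051, plus strand), had 298 of 300 promoter bases identical to *Apol11b*. All 3 of these windows held GAAANNGAAA on the strand opposite to the gene, at -50 to -41 from the start in *Apol11b* and at -51 to -42 in *Apol10a*, and TTCNNNGAA, which reads the same on both strands, at -241 to -233. The 2 motifs did not overlap there. In *Apol9a* and *Apol9b*, whose promoters were identical over 278 aligned bases, in *Apol7c* and in *Apol7e*, GAAANNGAAA was present in 2 places that overlap, and in *Apol10b* it was present once, at the start itself. Neither motif was found in the windows of *Apol8* or *Apol7a*. Of 32851 promoter windows of the same length, 3.44% held GAAANNGAAA and 8.3% held TTCNNNGAA. Such a match is a string of letters and was not tested as a binding site.

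ZFP36L2 binds AU-rich elements, and the study gave UAUUUAU as the shortest motif it bound. In its gel-shift assays ZFP36L2 bound an *Apol11b* probe with the same bases as the *Apol11b* site printed below. The study also reported *Apol11b* raised in L2-fKO spleen by quantitative PCR. Whether that binding changes the *Apol11b* level in the spleen was not tested here. Taking the longest 3′UTR that GENCODE M21 annotates for a gene, UAUUUAU occurred once in *Apol11b*, 74 bases into a 3′UTR of 919 bases, and in no other member. Of the 14227 tested spleen genes with an annotated 3′UTR, 29.5% held it. *Apol10a*, with a 3′UTR of 1947 bases, held no UAUUUAU but 5 copies of the shorter AUUUA, and *Apol10b*, *Apol7e* and *Apol8* held 1 AUUUA each. *Apol11a* held UAUUUAU as well, 85 bases into its 3′UTR. Both sites are given as DNA letters of the transcript strand on GRCm38, with the motif in capitals, because these were the only family genes shown here that carried it, and 28 of the 29 bases were identical between them.
Apol11b 3′UTR site (chr15:77634774-77634802, minus strand): aatgtcagaaaTATTTATtttcttgaaga
Apol11a 3′UTR site (chr15:77517393-77517421, plus strand): aatgtcagaaaTATTTATtttctagaaga

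In WT spleen the members ranged from abundant to nearly silent. Scaled to 1000000 counts per library and per kilobase of exon, *Apol8* had a level of 47.2 ± 9.28 (SD, n = 4) and *Apol11b* 32.6 ± 13.1, with overlapping ranges. *Apol7c* followed at 2.4 ± 1.13, below both. *Apol7e* (0.535 ± 0.219), *Apol10b* (0.355 ± 0.219) and *Apol9b* (0.259 ± 0.197) came next, with ranges that overlapped among neighbours. *Apol6*, *Apol10a*, *Apol7a* and *Apol9a* had mean levels of 0.0422, 0.0205, 0.0189 and 0.0162. Neighbours among these 4 overlapped, and the lowest library of *Apol9b* (0.126) was above the highest of *Apol6* (0.0613). In L2-fKO spleen the order changed at the top and in the middle. *Apol11b* was first at 513 ± 200 on this scale per length, 4.94 times the mean of *Apol8* at 104 ± 36.1, and its lowest library was above the highest of *Apol8*. *Apol10a* moved from place 8 to place 4, at 0.913 ± 0.48, where its range overlapped that of *Apol10b* at 0.827 ± 0.542. Among all 16866 tested genes with an exon length, *Apol11b* stood at rank 1661 by mean level per length in WT and at rank 71 in L2-fKO.

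*Apol11b* and *Apol10a* carried the large genotype difference. *Apol11b* had normalized counts of 5557, 2737, 2667 and 2921 in WT spleens 1 to 4 and of 52187, 29008, 80884 and 56429 in L2-fKO spleens 1 to 4. Every L2-fKO library was above every WT library, and WT spleen 1 was the highest WT library. The means were 3470.4 ± 1396 and 54627 ± 21252 (SD, n = 4 each), a ratio of 15.7, and the fitted log2 fold change was 3.98 with a standard error of 0.37. *Apol11b* took 0.00621% to 0.0133% of all counts in the WT libraries and 0.0669% to 0.169% in the L2-fKO libraries. Of the counts of the *Apol* genes listed here, it made up 26.9% to 50.7% in WT and 68.3% to 85.2% in L2-fKO.

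*Apol10a* was close to absent from WT spleen. Its raw counts were 5, 1, 3 and 2 in WT spleens 1 to 4 and 90, 44, 180 and 165 in L2-fKO spleens 1 to 4. The groups did not overlap, and the gene passed the count filter through the L2-fKO libraries alone. The summed counts gave a ratio of 44.6 with a 95% exact binomial interval of 24.7 to 89.9, which covers counting error only, and the fitted log2 fold change was 5.40 (standard error 0.56). *Apol11a*, the family gene with a promoter nearly identical to that of *Apol11b*, had normalized counts of 43.4, 15.2, 24.9 and 24.3 in WT and 502, 222, 1169.9 and 1143 in L2-fKO. It did not overlap between the groups either, and its log2 fold change was 4.81 (standard error 0.57). In all 3 genes L2-fKO spleen 2 was the lowest of the L2-fKO libraries and L2-fKO spleen 3 the highest. Between *Apol11b* and *Apol11a* transcripts 48 windows of 100 bases were identical, of 2633 and 1765, and between *Apol11b* and *Apol10a* 41. Raw counts of *Apol11b* were 894 to 2709 times those of *Apol10a* in WT and 401 to 595 times in L2-fKO. They were 107 to 181 times those of *Apol11a* in WT and 49.4 to 131 times in L2-fKO. The study counted only unique reads, so reads lying wholly in identical windows would be dropped and not counted to either gene. If even a small share of *Apol11b* reads were still misplaced on these genes, it would be large beside their own counts. The part of dropped or misplaced reads in *Apol10a* and *Apol11a* was not tested, and their counts are uncertain.

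**Figure D1:**
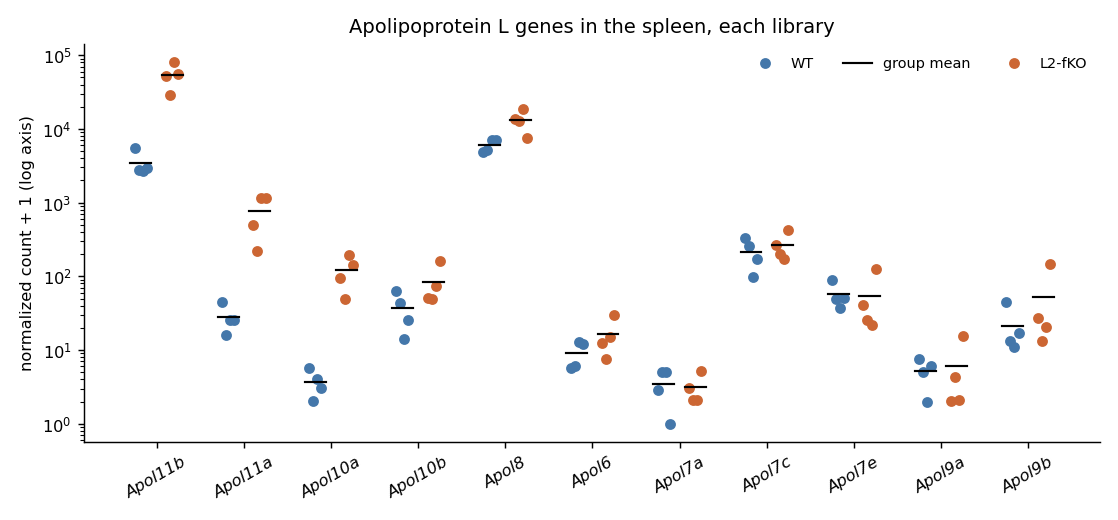
Normalized count plus 1 (log axis) of the 10 members and *Apol11a* in each spleen library, 4 WT (blue) and 4 L2-fKO (orange) for each gene, with the group mean as a black line. *Apol11b*, *Apol11a*, *Apol10a* and *Apol8* have every L2-fKO point above every WT point, and the other genes overlap.

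*Apol8* differed by less. It had normalized counts of 4809, 5253, 7042 and 7087 in WT spleens 1 to 4 and 13844, 12871, 18855 and 7575 in L2-fKO spleens 1 to 4. The groups did not overlap, although L2-fKO spleen 4 lay close above the WT libraries, in contrast to its high place for most other members. The log2 fold change was 1.14 (standard error 0.25), a ratio of means of 2.2. Among the L2-fKO libraries the summed erythroid markers followed the same order, at 2638250, 2353740, 3249200 and 1551280 normalized counts in L2-fKO spleens 1 to 4. The summed pancreatic acinar markers had this order too, at 1505, 1484, 2181 and 1255, so it was not particular to erythroid markers. In WT neither list followed *Apol8*, with erythroid sums of 2974110, 2963200, 1862580 and 3178410. The part of erythroid or acinar cells in the *Apol8* level was not tested.

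The other members tested in the spleen overlapped between genotypes. *Apol10b* had normalized counts of 63.2, 42.4, 12.9 and 24.3 in WT and 49.1, 47.6, 72.8 and 163 in L2-fKO, with a log2 fold change of 1.22 (standard error 0.53). *Apol9b*, an interferon-inducible gene, had 43.4, 12.1, 9.94 and 16.2 in WT and 26.1, 12.2, 19.6 and 146 in L2-fKO, with a log2 fold change of 1.33 (standard error 0.79). In both genes L2-fKO spleen 4 was the highest of the 8 libraries. *Apol7c*, which is known from dendritic cells, had 331, 254, 97.4 and 173 in WT and 267, 198, 169 and 430 in L2-fKO, with a log2 fold change of 0.32 (standard error 0.39). *Apol7e* had 88.6, 48.5, 35.8 and 50.5 in WT and 39.7, 24.4, 20.6 and 125 in L2-fKO, with a log2 fold change of -0.07 (standard error 0.55). In *Apol7e* the L2-fKO libraries other than number 4 lay in the lower part of the WT range or below it. *Apol6*, whose human counterpart is known for a part in cell death, had 4.72, 5.05, 11.9 and 11.1 in WT and 11.5, 6.65, 14.1 and 29.0 in L2-fKO, with a log2 fold change of 0.92 (standard error 0.50). *Apol7a*, with raw counts of 0 to 5, and *Apol9a*, with raw counts of 1 to 17, failed the filter and showed no separation of the groups at this depth. Counts for *Apol9a* and *Apol9b* are uncertain, since 685 windows of 100 bases are identical between their transcripts, and so are those for *Apol7e*, which shares 1258 of 2314 windows with *Apol7b*.

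By the limits used for all genes (adjusted p below 0.05 and a change of over 1 on the log2 scale), 3 of the 8 tested members were past them upwards, *Apol10a*, *Apol11b* and *Apol8*, and none downwards. Of all 16911 genes tested, 2.9% were past them upwards and 3.11% downwards. Every L2-fKO library was above every WT library in the same 3 members and in 9.61% of all genes tested. Since this contrast is the one the members were chosen by, nothing is read from those counts. When single libraries were left out, the log2 fold changes ran from 3.73 to 4.30 for *Apol11b*, from 5.07 to 5.81 for *Apol10a* and from 0.92 (without L2-fKO spleen 3) to 1.33 for *Apol8*, which was at 0.89 in males only.

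**Figure D2:**
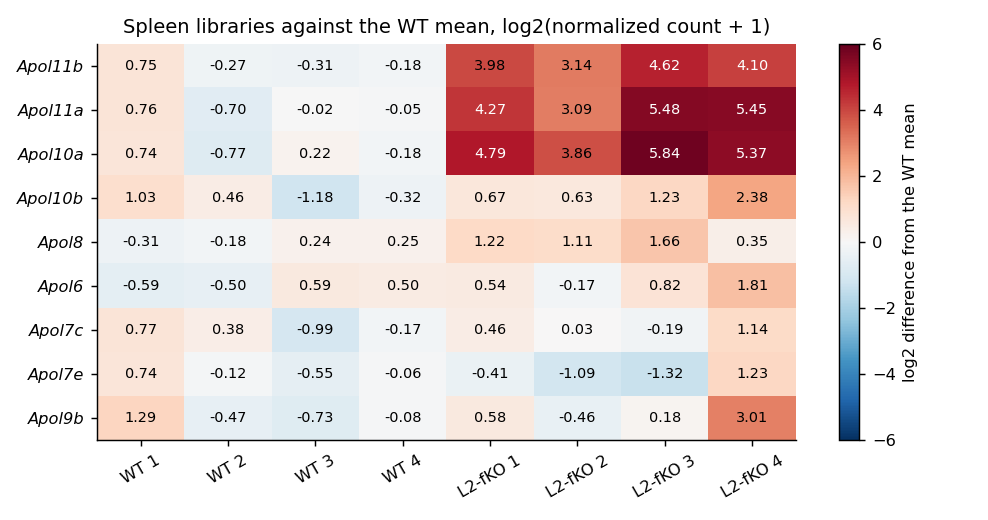
Difference of each spleen library from the mean of the 4 WT libraries on the log2(normalized count + 1) scale, for the 8 members tested and *Apol11a* (rows) in WT and L2-fKO libraries (columns), with the value printed in each cell. *Apol11b*, *Apol11a* and *Apol10a* lie at 3.09 to 5.84 in all 4 L2-fKO libraries, whereas *Apol9b* reaches 3.01 in L2-fKO spleen 4 and -0.46 to 0.58 in the other L2-fKO libraries.

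The members thus showed 2 patterns across the L2-fKO libraries. L2-fKO spleen 4 had the highest level of 7 of the 10 members among the L2-fKO libraries, the exceptions being *Apol11b*, *Apol10a* and *Apol8*. Of these 7, *Apol7a* and *Apol9a* failed the count filter, and the share of all genes highest in that library was not computed. WT spleen 1 had the highest level of 7 of the 10 among WT, the exceptions being *Apol7a*, *Apol6* and *Apol8*. The WT libraries did not separate the 2 sets, since *Apol11b* and *Apol10a* were also highest in WT spleen 1. *Apol6* was lowest there, at 4.72 against 5.05 to 11.9 in the other WT spleens. Without L2-fKO spleen 4 the log2 fold changes of *Apol9b*, *Apol7e*, *Apol7c*, *Apol10b* and *Apol6* became -0.08, -0.98, -0.01, 0.66 and 0.40, while those of *Apol11b* and *Apol10a* were 3.96 and 5.32. The same pair of libraries had the highest summed counts of 35 interferon-stimulated genes, 132028 in L2-fKO spleen 4 against 46351 to 51851 in the other L2-fKO spleens, and 89557 in WT spleen 1 against 46484 to 56281 in the other WT spleens. They also had the highest sums in their groups for 8 of 17 marker lists, those of B cells, T cells, natural killer cells, monocytes, plasmacytoid and conventional dendritic cells and endothelial cells and the check of spleen tissue. For the 5 plasmacytoid dendritic cell markers the sums were 30134 in WT spleen 1 and 19008 in L2-fKO spleen 4, for the 6 B cell markers 67524 and 35464, and for the 4 monocyte markers 15478 and 28897. None of the markers in the 8 lists was at 0 in all libraries. L2-fKO spleen 4 was the highest L2-fKO library for the red pulp macrophage, mast cell, stromal, oocyte and granulosa lists as well. In those lists WT spleen 1 was not the highest WT library. The part of any of these cells in the levels of *Apol9b*, *Apol7c*, *Apol7e*, *Apol10b* and *Apol6* was not tested.

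Other gene groups were read in the same fit. Of 35 interferon-stimulated genes tested in the spleen, 1 was past the limits upwards and 0 downwards, with a median log2 fold change of 0.11 against -0.02 over all genes. The most abundant were *Rsad2* at 22034 ± 6181 in WT and 23779 ± 8831 in L2-fKO (log2 fold change 0.11, adjusted p = 0.819 in edgeR's test) and *Isg15* at 5182 ± 2823 and 6742 ± 5562 (0.38, adjusted p = 0.662). The gene past the limits was *Iigp1*, an interferon-inducible GTPase, at 555 ± 208 and 3034 ± 3106 (2.45, adjusted p = 0.0229), named after its values were seen. Of the apolipoprotein genes of plasma lipoproteins, which share the name but not the family, 6 of 16 were tested and 0 were past the limits, with a median log2 fold change of -0.35, and *Apoe*, the most abundant, had 22293 ± 6081 and 21656 ± 5686 (-0.04, adjusted p = 0.931). Of 27 tested protein-coding genes within 500 kb of the members that are not *Apol* genes, 0 were past the limits upwards and 2 downwards, *Foxred2* (log2 fold change -1.24, adjusted p = 0.00824) and *Ncf4* (-1.03, adjusted p = 0.0389), with a median of -0.16. The call of *Iigp1* was lost without WT spleen 2 (adjusted p = 0.0756) or WT spleen 4 (adjusted p = 0.0752), its log2 fold change was 1.42 without L2-fKO spleen 4, and the call of *Ncf4* was lost without any 1 library except L2-fKO spleen 4, at log2 fold changes of -0.79 to -1.11. *Myh9*, next to *Apol8*, had 27266 ± 2158 and 23393 ± 4992 (-0.22, adjusted p = 0.384). *Apold1*, a more distant relative on chromosome 6, had 658 ± 166 and 1020.2 ± 329 (0.63, adjusted p = 0.129). Of the 5 family genes outside the 10, *Apol11a* and *Apold1* were tested in the spleen and 1, *Apol11a*, was past the limits, while *Apol7b* and *Apol7d* had mean normalized counts of at most 6.31 and *Apol10c-ps* was not analysed here.

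The genes closest in pattern to *Apol11b* over the 8 spleen libraries, by the root mean square difference of centred log2(normalized count + 1) among 12293 genes, were *Gfra1*, a co-receptor for GDNF (0.378), *Rgs4*, a regulator of G protein signalling (0.418), *Cdhr1*, a cadherin-related gene (0.45), *Cda*, a cytidine deaminase (0.491), and *Serpina3n*, a serine protease inhibitor (0.52). Mean normalized counts went from 127 in WT to 1438 in L2-fKO for *Gfra1* and from 98.9 to 973 for *Serpina3n*. Closest to *Apol10a* were *Apol11a* (0.311), *A2m*, a protease inhibitor (0.394), *Mmp3*, a matrix metalloproteinase (0.747), *Rgs4* (0.871) and *Cdhr1* (0.878). *Apol11b* would stand in the third place of that list, at 0.591. *Apol10b* would stand at place 272 and *Apol8* at place 319. The distance includes the genotype difference by which the members were chosen, so genes that rose about as much come first. These places do not show how genes varied between animals of the same genotype.

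The sex of the animals, which the choice of the members did not use, was tested in the same spleen libraries with genotype in the model. *Apol11b* was 0.66 higher in females on the log2 scale (standard error 0.29) and *Apol10a* 1.10 higher (standard error 0.43), with adjusted p = 0.966 for both in edgeR's quasi-likelihood test. None of the 8 members was called, beside 0.0355% of all genes, while 2 members had an unadjusted p below 0.05, *Apol11b* at 0.0466 and *Apol10a* at 0.0327, beside 4.65% of all genes. L2-fKO spleen 3, the only L2-fKO female, was also the highest library for both.

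The choice of the members used no ovary library, but L2-fKO ovary 1 came from the pup of L2-fKO spleen 3, whose spleen values were among those behind the choice, so its values are no independent evidence. *Apol11b* had normalized values of 10.95, 11.7 and 16.5 in WT ovaries 1 to 3 and of 113, 32.9 and 21.6 in L2-fKO ovaries 1 to 3. All L2-fKO values were above all WT values, and L2-fKO ovary 1 was far above the rest. The means were 13.1 ± 3.02 and 55.7 ± 49.6 (SD, n = 3 each), and the log2 fold change was 1.68 (standard error 0.58), with adjusted p = 0.212 in limma across 18504 genes and p = 0.1 in a two-sided exact permutation test, the smallest that 3 against 3 allows. On the scale per length, *Apol11b* stood at 0.142 ± 0.0329 in WT ovary and 0.607 ± 0.541 in L2-fKO ovary, and the tissues were normalized separately, so the 32.6 in WT spleen can only be set beside it. The DESeq2 Wald test on the recovered reads gave 2.10 (standard error 0.66) with adjusted p = 0.031, and edgeR's test on the same reads gave 2.09 with adjusted p = 0.168. Without L2-fKO ovary 1 the limma value was 1.00 (standard error 0.39, adjusted p = 0.267).

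*Apol9a* and *Apol9b*, the interferon-inducible pair that has antiviral activity in cultured cells, were both higher in L2-fKO ovary by value. *Apol9a* had 2.43, 3.34 and 2.75 in WT and 23.3, 21.6 and 6.83 in L2-fKO, and *Apol9b* had 10.95, 3.34 and 10.1 in WT and 16.1, 30.8 and 13.7 in L2-fKO. Neither gene overlapped between the genotypes. *Apol9b* had a log2 fold change of 1.26 (standard error 0.52) with adjusted p = 0.279 in limma. *Apol9a* failed the filter of 10 in at least 3 libraries, and without that filter it had 2.09 (standard error 0.52) with adjusted p = 0.11. Reads of this pair cannot be fully told apart, as noted for the spleen. *Apol6* had 45.0, 47.6 and 48.6 in WT and 30.4, 26.7 and 37.6 in L2-fKO, all L2-fKO values below all WT values, with a log2 fold change of -0.58 (standard error 0.24) and adjusted p = 0.286 in limma. *Apol7e* had 24.3, 16.7 and 23.9 in WT and 20.6, 14.4 and 7.97 in L2-fKO (-0.64, standard error 0.40, adjusted p = 0.474 in limma). *Apol10b*, the member with the highest level per length in WT ovary (0.792 ± 0.168), had 62.1, 58.5 and 85.3 in WT and 123, 47.3 and 46.7 in L2-fKO (-0.06, standard error 0.40, adjusted p = 0.951 in limma). Both of these overlapped.

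**Figure D3:**
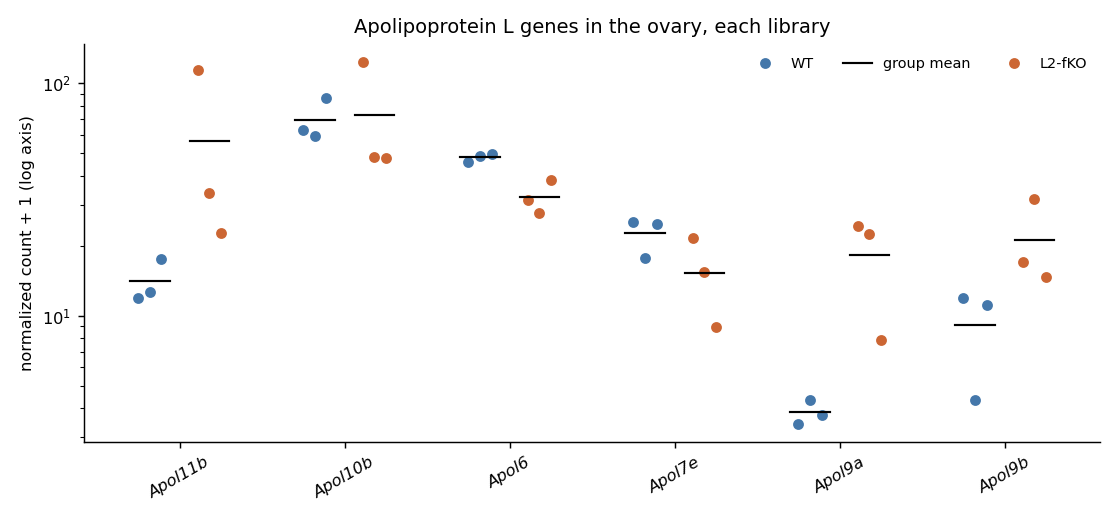
Normalized value plus 1 (log axis) of the 6 members in the ovary table in each library, 3 WT (blue) and 3 L2-fKO (orange), with the group mean as a black line. *Apol11b*, *Apol9a* and *Apol9b* have every L2-fKO point above every WT point, *Apol6* every one below, and *Apol10b* and *Apol7e* overlap.

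By limma, 0 of the 5 members tested in the ovary passed the limits, beside 0.73% of all genes upwards and 0.227% downwards. At an unadjusted p below 0.05 there were 3, *Apol11b*, *Apol9b* and *Apol6*, of the 5 tested, beside 16.8% of all genes. By DESeq2 on the recovered reads 1 passed, *Apol11b*, beside 1.55% of all genes upwards. Of the 6 members in the table, 3 had every L2-fKO library above every WT library, beside 13.2% of all genes tested. *Apol9a*, which is among the 3, was not a tested gene. For *Apol11b* the nearest libraries held 19 reads (L2-fKO ovary 3) and 18 reads (WT ovary 3). The share of all genes with every L2-fKO library below every WT library, as in *Apol6*, was not computed. In the same ovaries 22 of 34 interferon-stimulated genes had every L2-fKO library above every WT library and 3 were called upwards by limma, *Oas3* from 12.98 ± 4.68 to 50.4 ± 11.5 (log2 fold change 1.90, adjusted p = 0.0428), *Isg15* from 41.5 ± 6.38 to 131 ± 31.6 (1.62, adjusted p = 0.0266) and *Trim30a* from 463 ± 30.2 to 947 ± 33.1 (1.03, adjusted p = 0.0045). Leaving out any 1 library ended the call of *Oas3* (adjusted p of 0.0694 to 0.186), any WT library or L2-fKO ovary 3 that of *Isg15* (0.0668 to 0.133), and WT ovary 3 that of *Trim30a*, at a log2 fold change of 0.98. The interferon-stimulated genes summed to 13372 to 14053 normalized counts in WT and 16226 to 16944 in L2-fKO, with all 3 L2-fKO sums close together. *Bst2*, the most abundant gene of that list, had 4722 ± 106 in WT and 4599 ± 179 in L2-fKO. Single genes differed in spread among the L2-fKO ovaries, from *Trim30a* as given to *Iigp1* at 352 ± 110 and *Cxcl10* at 169 ± 67.3. In the ovary 0 of 10 tested genes of plasma lipoproteins, 0 of 27 neighbouring genes and 0 of 2 other family genes passed the limits in limma, with medians of -0.22, -0.08 and 0.47 on the log2 scale against -0.00425 over all genes, and 0.54 for the interferon-stimulated genes. Red pulp macrophage markers, which also mark other tissue macrophages, summed to 9534 to 10178 in WT ovaries and 10388 to 14301 in L2-fKO ovaries. None of the 9 was at 0 and none was called. Sums were also higher in every L2-fKO ovary for endothelial (11002 to 11901 and 13264 to 16275) and monocyte markers (785 to 908 and 959 to 1467). The same held for conventional dendritic cell (3283 to 3727 and 3780 to 4650) and T cell markers (300 to 488 and 556 to 589), of which *Cd4* was called upwards. Pancreatic acinar sums were all lower in L2-fKO, and the other lists overlapped. The part of any of these cells in the *Apol* values was not tested. Over the 6 ovary libraries the genes closest in pattern to *Apol11b* were *Clec4n*, a myeloid lectin receptor (root mean square difference 0.487), *Iigp1* (0.528), *Gm23935* (0.531), *Hbb-bt*, an adult beta globin (0.535), and *Lars2*, a mitochondrial leucyl-tRNA synthetase (0.546).

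**Figure D4:**
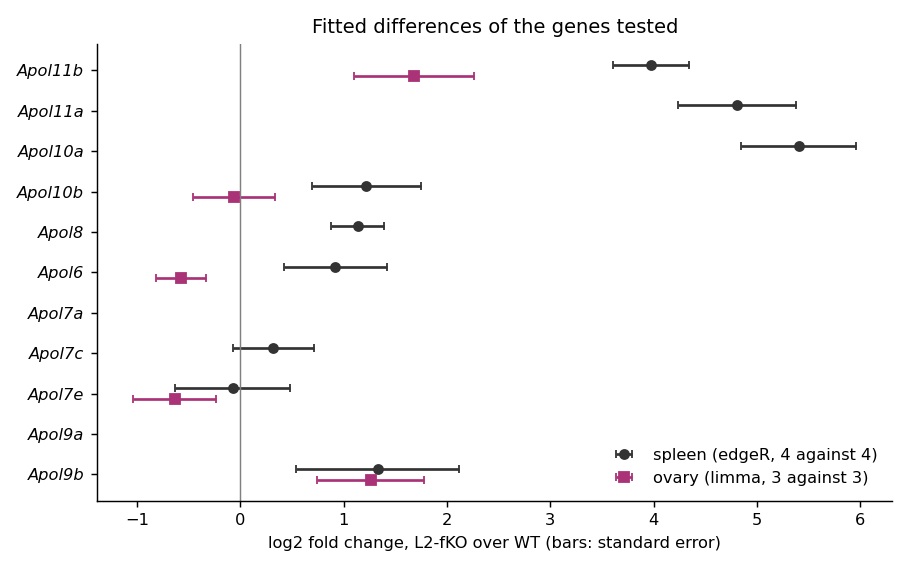
Fitted log2 fold change of L2-fKO over WT with its standard error for each member tested and *Apol11a*, in the spleen (black circles, edgeR, 4 against 4) and the ovary (purple squares, limma on log2(value + 1), 3 against 3). *Apol10a*, *Apol11a* and *Apol11b* lie at 3.98 to 5.40 in the spleen, *Apol11b* at 1.68 in the ovary, and genes with no point were not tested in that tissue.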

How the data were processed

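Poly(A) RNA of 8 spleens and 6 ovaries was sequenced with strand-specific libraries. According to the submitters' processing notes, the authors trimmed reads with Trimmomatic 0.36, aligned them with STAR 2.5.2b to GRCm38 and counted reads on exons with featureCounts of Subread 1.5.2. The study states that the counts were of unique reads only. For the spleen the authors deposited whole-number counts per gene, with 39138010 to 45167464 per library. For the ovary the deposited values are a signal per gene, counts divided by a size factor, and in all 6 libraries 100% of values were whole multiples of the value of 1 read, so reads were recovered. The ovary table held only genes with at least 61 recovered reads in all. The authors' tables of fold changes and p-values in the deposited files were not used.

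The members and gene lists were chosen with earlier results of these data known. Genes reaching 10 counts in 4 or more spleen libraries were fitted with edgeR 4.0.16 (quasi-likelihood test, TMM factors), sex with genotype in the model, and ovary values of at least 10 in at least 3 libraries with limma 3.58.1 on log2(value + 1), which understates changes of low genes. The standard error of an edgeR log2 fold change is its size divided by the root of the F statistic. P-values were adjusted by Benjamini-Hochberg over all genes tested, and a gene was called where the adjusted p was under 0.05 and the log2 fold change exceeded 1 in size. On simulated data of the same size, edgeR called 194 of 200 changed genes in the spleen and limma 198 of 200 in the ovary, beside 5 and 6 unchanged genes. The changed genes differed 4-fold and were drawn only from genes above a set mean count. In the ovary *Apol11b*, *Apol9b*, *Apol7e* and *Apol6* lay below that mean, so these rates do not cover them. Normalized counts are counts over the TMM-scaled library size at its mean. Levels per kilobase use the summed exon length of GENCODE M21. Named genes were all 10 members, up to 5 called genes per list by fold (with fewer than 3 called, the 5 of highest mean level), the 5 nearest in pattern to *Apol11b* and *Apol10a* with a mean of at least 100, and *Zfp36l2*. DESeq2 1.42.0, other scalings, filters, pseudocounts, covariates and left-out libraries were alternatives. Each library was 1 animal, and no 2 libraries held identical values. Protein sequences were not used here. Symbols came from GENCODE M21 by Ensembl ID for 48970 of 49315 spleen genes. Promoters were matched by symbol for all members but *Apol6*.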

Additional observations from a re-analysis of the deposited data

Results flagged for a closer look

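Among 28 groups of 4 spleen libraries (the 10 members, *Apol11a* and the sums of 3 gene lists, each in WT and L2-fKO), 4 held a highest library whose gap to the next was beyond Dixon's 95% critical value, which chance alone exceeds in about 1 in 20 groups. *Apol11b* in WT spleen 1 had a normalized count of 5557 against 2667 to 2921 in the other WT libraries. *Apol9a* in L2-fKO spleen 4 had 14.5 against 1.04 to 3.32. *Apol9b* in L2-fKO spleen 4 had 146 against 12.2 to 26.1. The summed interferon-stimulated genes in L2-fKO spleen 4 had 132028 against 46351 to 51851.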

How the results depend on the processing

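The count of members past the limits in the spleen follows from how they were chosen and is not read for stability; an alternative chosen after seeing the data left out both WT spleen 1 and L2-fKO spleen 4. In the ovary the count was 0, became 1 with DESeq2 on the recovered reads, where *Apol11b* passed, and was 0 under the other alternatives, with adjusted p of *Apol11b* from 0.031 to 0.494. The cause was not tested. For sex it was 0 throughout. The count of list genes called in the spleen was 4, and became 8 when every gene with a count was tested, 2 with sex as a covariate, 1 in males only, and 2 to 11 with single libraries left out (2 without WT spleen 2, 11 without L2-fKO spleen 4). In the ovary it was 3, and became 10 with DESeq2 on the recovered reads and 0 to 3 with single libraries left out (1 without WT ovary 1, 1 without WT ovary 2 and 0 without WT ovary 3). In the spleen the calls of *Iigp1* and *Ncf4* were also lost with sex as a covariate (adjusted p of 0.0574 and 0.0539), with the replicate block (0.0548 and 0.054) and in males only (0.0546 and 0.0519), where *Foxred2* fell short of the fold limit at -0.88. The DESeq2 Wald test gave no adjusted p for *Iigp1* in the spleen, so it was not called there. UAUUUAU was in 1 member with the longest or the shortest 3′UTR. Some log2 fold changes changed sign, beside those in the spleen given with the results. *Apol10b* in the ovary was -0.06 and became 0.076 with edgeR and 0.078 with DESeq2 on the recovered reads, and -0.52 to 0.17 with single libraries left out. For sex, *Apol10b* became 0.0082 with DESeq2, and with single libraries left out the female over male values ran from -0.66 to 0.36 for *Apol10b*, -0.96 to 0.0043 for *Apol7c*, -1.02 to 0.33 for *Apol7e*, -0.39 to 0.29 for *Apol6*, -0.062 to 0.48 for *Apol8* and -1.20 to 0.91 for *Apol9b*.

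The titles give the number 3 to 2 of the WT spleens, and the one numbered 4 here was so named only to tell them apart. The study matched the spleens by age in pairs, but neither the labels nor its text say which animals were matched. Same-numbered libraries did not deviate together throughout (r of -0.29 to 0.18 in the spleen and 0.07 to 0.38 in the ovary), and not every library correlated best with its own number, so the numbers were not taken as pairs. With the replicate block, which rests on these ambiguous numbers, 0 members were past the limits in the ovary, and calls over all genes went from 490 upwards and 526 downwards to 411 and 389 in the spleen and from 135 and 42 to 187 and 81 in the ovary. Members with few counts are limited by depth: *Apol7a* had 0 to 5 counts per spleen library and *Apol9a* 1 to 17.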
